A study of Homo sapiens with 8 samples.

Results

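The snoRNA host transcripts are 8 long noncoding RNAs that carry small nucleolar RNAs (snoRNAs) in their introns: GAS5, SNHG1, SNHG5, SNHG6, SNHG7, SNHG8, SNHG12 and SNHG15. They were chosen by symbol, and all 8 were present among the 22808 gene symbols of the count table. RD18 is an established human cell line of fusion-negative rhabdomyosarcoma, a tumour of muscle-lineage cells. The cells were transfected with miR-449a together with miR-340 (4 libraries, the label naming the miR-340-5p strand), or received lipofectamine alone as vehicle (4 libraries), and RNA was taken at 60 h in both groups. Because vehicle cells took up no control RNA, effects of transfected RNA as such and of the microRNAs cannot be told apart. The labels do not say whether replicates were separate cultures, so the p-values rest on a spread between samples that may be technical.

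snoRNAs guide chemical modification of ribosomal RNA. Those of the box C/D class direct ribose methylation, and those of the box H/ACA class direct pseudouridylation. Most human snoRNAs are cut from the introns of longer host transcripts. Many hosts begin with a short run of pyrimidines, the terminal oligopyrimidine (TOP) tract that ribosomal protein mRNAs also carry. The spliced host RNA usually encodes no protein of known function. Several hosts are loaded onto ribosomes and degraded by nonsense-mediated decay. GAS5 was first found as an RNA that accumulates when growth stops.

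The sequences of the transfected microRNAs are shown because their seeds define the words searched for in the host transcripts. The mature sequences are those of RefSeq on GRCh38.p14, and the seed, bases 2 to 8, is in capitals.
miR-449a (chr5:55170586-55170607, minus strand): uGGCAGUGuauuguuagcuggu
miR-340-5p (chr5:180015361-180015382, minus strand): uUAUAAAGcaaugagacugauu
The seed of miR-449a pairs with the word CACTGCC, and that of miR-340-5p with CTTTATA. They were searched for on the transcribed strand of every GENCODE 29 transcript of the 8 genes. Of the 8 genes, 2 held either word in any transcript. Of the other tested genes matched by name, 60.6% did, over transcripts of all lengths, so these shares are not matched for length. The longest transcripts of the 8 genes ran from 648 bases (SNHG6) to 3116 bases (SNHG15). Windows of other tested genes cut to these lengths held the miR-449a word in 6.72% and 30.1%. For the miR-340-5p word the values were 2.03% and 16.5%.

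SNHG1 held the miR-340-5p word in 2 of 25 annotated transcripts, at position 39 of transcript SNHG1-209, and SNHG7 held the miR-449a word in 4 of 4. In transcript SNHG1-219 the first exon, 50 bases long, ends before the SNHG1 word. There the word lies in the intron that follows and not in the spliced RNA. Among windows cut to the same length from the longest transcripts of other tested genes, 14.2% held the miR-340-5p word at the length of SNHG1-209 (2768 bases). At the length of the longest SNHG7 transcript (2357 bases), 24.3% held the miR-449a word. The matches are printed with the word in capitals.
SNHG1 and miR-340-5p: ggcttcgtggtCTTTATAgctgttactct
SNHG7 and miR-449a: acagcaaaggcCACTGCCtggacatgaga
A match is a description of the letters and not a measured site. GAS5, SNHG5, SNHG6, SNHG8, SNHG12 and SNHG15 held neither word in any annotated transcript.

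The 5′ ends of annotated host transcripts are shown for the pyrimidine tract. A tract was counted where a C followed by at least 4 further C or T began within the first 15 bases of a GENCODE 29 transcript (GRCh38), on the transcribed strand only. For each gene with such a transcript, other than SNHG6, the transcript with the longest tract is printed over its first 30 bases, with the tract in capitals.
GAS5 (transcript GAS5-209, chr1:173868853-173868882, minus strand): cagcacttgagcagCTTTCTTCTgcgttag
SNHG1 (transcript SNHG1-219, chr11:62855885-62855914, minus strand): atttaatcgtCTCCCCggggagattcgttc
SNHG5 (transcript SNHG5-202, chr6:85678704-85678733, minus strand): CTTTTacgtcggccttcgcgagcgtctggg
SNHG8 (transcript SNHG8-202, chr4:118278755-118278784, plus strand): ggCCTTTCacattcgggaagcgtcgggatt
SNHG12 (transcript SNHG12-205, chr1:28581849-28581878, minus strand): agcgCCCTTTCTCCCCgccgcattcccggt
Of the 8 genes, 6 had such a transcript, as did 70.5% of the other tested genes matched by name, so the share of genes lay near that of all genes. Counted over transcripts it was 34.7% for the 8 genes, 41.4% for cytosolic ribosomal protein genes and 21.3% for the other tested genes. The rule did not require a tract to start at base 1, where that of SNHG5 starts. These shares are therefore not shares of TOP tracts. Annotated starts are not measured starts, and SNHG7 and SNHG15 had no such transcript.

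Library totals were between 2842165 and 5569342 counts with microRNA and between 2567737 and 4650213 counts with vehicle. The 8 genes together took 1788 to 3765 counts in microRNA libraries and 3026 to 5186 in vehicle libraries. CPM values, in which libraries are brought to 1 common total, were computed after TMM scaling, which sets the typical gene equal between libraries. The muscle regulator MYOD1 was present in both groups (108 ± 3.72 CPM with microRNA and 204 ± 21.7 CPM with vehicle, SD, n = 4 each), and so was desmin (DES, 67.7 ± 7.14 CPM with microRNA and 108 ± 10.6 CPM with vehicle). All 10 tested muscle identity markers were lower with microRNA, against 34% of all tested genes. The falls were largest for myogenin (MYOG), at 0.646 ± 0.372 CPM with microRNA and 10.4 ± 1.89 CPM with vehicle, and the receptor gene FGFR4, at 15.2 ± 0.82 CPM with microRNA and 78.0 ± 7.85 CPM with vehicle. Leukocyte markers summed to 2.07 to 3.41 CPM with microRNA and 1.67 to 3.77 CPM with vehicle, and endothelial markers to 0.341 to 1.61 CPM with microRNA and 0.777 to 3.37 CPM with vehicle. Of 6 epithelial markers 5 were in the table, and they summed to 71.9 to 83.3 CPM with microRNA and 38.6 to 49.7 CPM with vehicle. Most of that sum was keratin 18 (KRT18), while EPCAM had 21 counts in all microRNA libraries and 1 in all vehicle libraries. The part of these shifts in the results was not tested.

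All 8 snoRNA host transcripts were lower in cells given miR-449a and miR-340. The falls were between 1.23-fold for GAS5 and 3.58-fold for SNHG1, with a median log2 fold change of -1.31, against a median of 0.00 over all 12366 tested genes. Each of the 8 passed the test (edgeR quasi-likelihood test, Benjamini-Hochberg adjustment over all tested genes, adjusted p under 0.05), where 34% of all tested genes were called lower and 67.3% in either direction. In each of the 8 the groups did not overlap, with microRNA libraries below vehicle libraries, as was so for 29.7% of tested genes, and 58.9% did not overlap in either direction. At least 2-fold falls were found for 6 of the 8, against 13.1% of tested genes. Summed over the 8 genes, the level was 639 ± 16.8 CPM with microRNA and 1232 ± 50.1 CPM with vehicle (SD, n = 4 each). In bulk RNA, fewer cells holding a transcript and less of it per cell cannot be told apart.

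**Figure D1:**
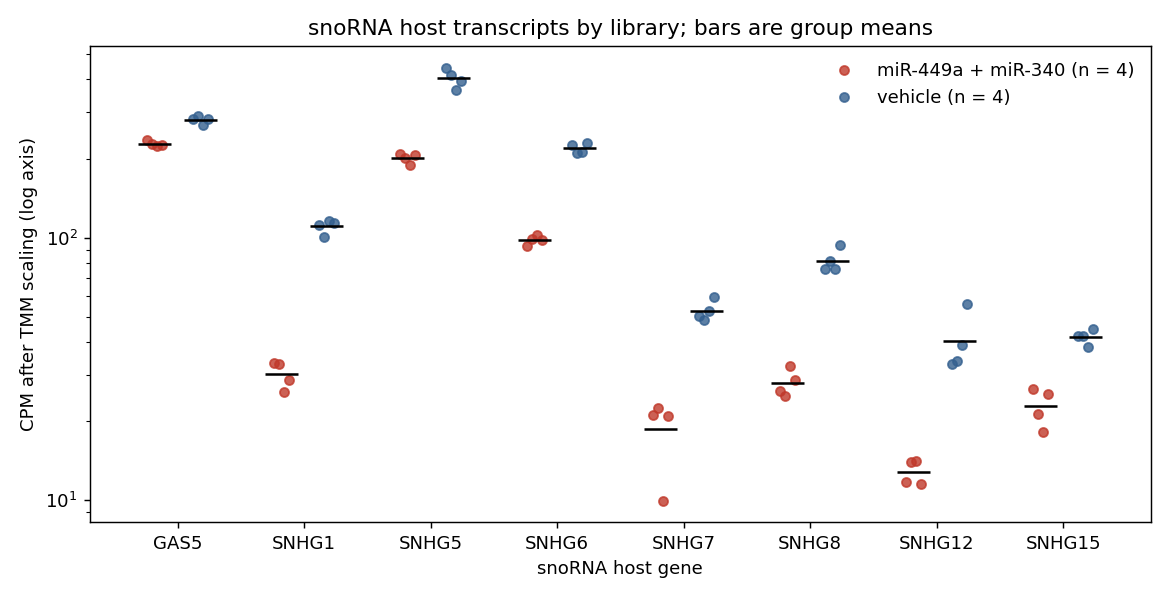
Level of each snoRNA host transcript in each library, in CPM after TMM scaling on a log axis, with microRNA libraries (red) left of vehicle libraries (blue) and bars at the group means. In all 8 genes the 4 microRNA libraries lie below the 4 vehicle libraries, with the narrowest gap in GAS5 and 1 low SNHG7 library at 9.98 CPM.

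The hosts of box C/D snoRNAs are described first. GAS5, growth arrest-specific 5, lies on the minus strand of chromosome 1 (173863900 to 173868882, GRCh38, GENCODE 29). It measured 236, 227, 223 and 225 CPM in the microRNA libraries, against 284, 289, 269 and 282 CPM in the vehicle libraries. The highest microRNA library was below the lowest vehicle library, and GAS5 had the smallest fold change of the 8. GAS5 fell by 0.30 on the log2 scale (SE 0.06, adjusted p = 1.22e-05). By library size alone, without TMM, the median shift over all genes was 0.138 on the log2 scale, and the log2 fold change of GAS5 was -0.16 (adjusted p = 0.0227).

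SNHG1, once named the U22 host gene and known as an RNA whose introns rather than its spliced exons are conserved, lies on the minus strand of chromosome 11 (62851988 to 62855914). It measured 33.2, 33.1, 25.8 and 28.6 CPM in the microRNA libraries, against 112, 101, 115 and 113 CPM in the vehicle libraries. Every vehicle library was at least 100 CPM, and no microRNA library reached 34 CPM. Its log2 fold change was -1.84 (SE 0.10, adjusted p = 7.05e-25), a 3.58-fold fall. SNHG5, host of the SNORD50 snoRNAs on chromosome 6 (85660950 to 85678748, minus strand), measured 208, 201, 189 and 206 CPM with microRNA, against 444, 416, 363 and 396 CPM with vehicle. The vehicle libraries were more spread than the microRNA libraries, without overlap. SNHG5 fell 2.00-fold (log2 fold change -1.0, SE 0.06, adjusted p = 5.68e-22). SNHG6, host of SNORD87 on chromosome 8 (66921684 to 66926398, minus strand), measured 92.7, 98.6, 102 and 98.2 CPM with microRNA, against 225, 211, 211 and 229 CPM with vehicle. Both groups were tight, and SNHG6 fell 2.24-fold (log2 fold change -1.16, SE 0.07, adjusted p = 1.70e-22).

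The other 4 genes host mainly box H/ACA snoRNAs. SNHG7, host of the SNORA17 snoRNAs on chromosome 9 (136721366 to 136728184, minus strand), measured 21.1, 22.5, 9.98 and 20.9 CPM with microRNA, against 50.2, 48.4, 52.8 and 59.3 CPM with vehicle. The third microRNA library held 29 counts of it and was far below the other microRNA libraries. SNHG7 fell 2.73-fold (log2 fold change -1.45, SE 0.14, adjusted p = 2.36e-13), and without that library its log2 fold change was -1.29. SNHG8, host of SNORA24 on the plus strand of chromosome 4 (118278709 to 118279823), measured 26.1, 24.9, 32.4 and 28.6 CPM with microRNA, against 75.7, 81.3, 75.9 and 93.9 CPM with vehicle. The highest microRNA library was less than the lowest vehicle library, and SNHG8 fell 2.98-fold (log2 fold change -1.58, SE 0.11, adjusted p = 5.37e-20).

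SNHG12 lies on the minus strand of chromosome 1 (28578538 to 28583132). It hosts SNORA16A, SNORA44, SNORA61 and the box C/D snoRNA SNORD99. It measured 11.7, 14.0, 14.1 and 11.6 CPM with microRNA, against 33.0, 33.9, 39.1 and 55.8 CPM with vehicle. The fourth vehicle library was the highest, and without it the log2 fold change was -1.46, against -1.67 with all libraries (SE 0.15, adjusted p = 2.67e-14). SNHG15, host of SNORA9 on chromosome 7 (44983023 to 44986961, minus strand) and known as a short-lived, stress-responsive RNA, measured 26.6, 21.3, 18.2 and 25.4 CPM with microRNA, against 42.3, 42.2, 38.4 and 45.0 CPM with vehicle. The groups were apart, and SNHG15 fell 1.81-fold (log2 fold change -0.86, SE 0.13, adjusted p = 3.09e-08). The box C/D hosts spanned -1.84 to -0.30 in log2 fold change and the others -1.67 to -0.86, so the ranges of the snoRNA classes overlapped. Of all tested genes, 4.28% had a lower log2 fold change than SNHG1, 13.1% than SNHG5 and 35.9% than GAS5.

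**Figure D2:**
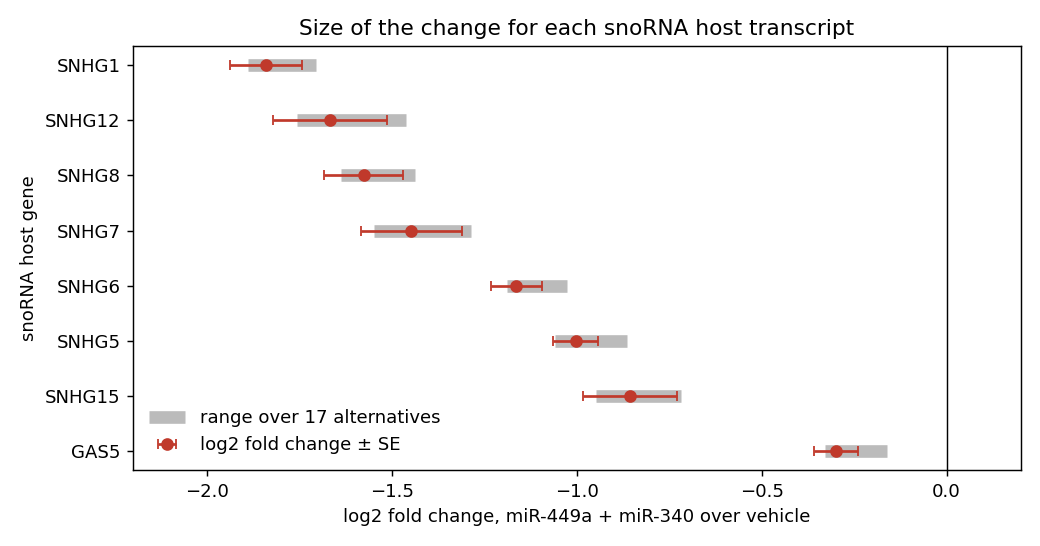
Log2 fold change of each snoRNA host transcript, microRNA over vehicle, with its standard error (red) and the range over 17 other ways of fitting the data (grey). Every value lies below 0, with SNHG1 at -1.84 and GAS5 at -0.30.

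The falls were uneven, and the make-up of the host RNA pool differed between groups. GAS5 made up 35.6 ± 0.64% of the summed counts of the 8 genes with microRNA and 22.8 ± 0.67% with vehicle (SD, n = 4 each, exact two-sided permutation test over libraries, p = 0.0286). SNHG1 made up 4.71 ± 0.47% with microRNA and 8.97 ± 0.69% with vehicle (exact p = 0.0286). SNHG6, SNHG7, SNHG8 and SNHG12 each took a smaller share with microRNA than with vehicle (exact p = 0.0286 for each). The share of SNHG5 was 31.4 ± 0.53% with microRNA and 32.8 ± 2.02% with vehicle, a difference within the spread (exact p = 0.343). That of SNHG15 was 3.57 ± 0.52% with microRNA and 3.40 ± 0.11% with vehicle (exact p = 0.486). These 8 tests are not independent, since shares sum to the whole, their p-values are not adjusted, and 0.0286 is the smallest p that 4 against 4 libraries allow. Shares within a library do not depend on how libraries are scaled.

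**Figure D3:**
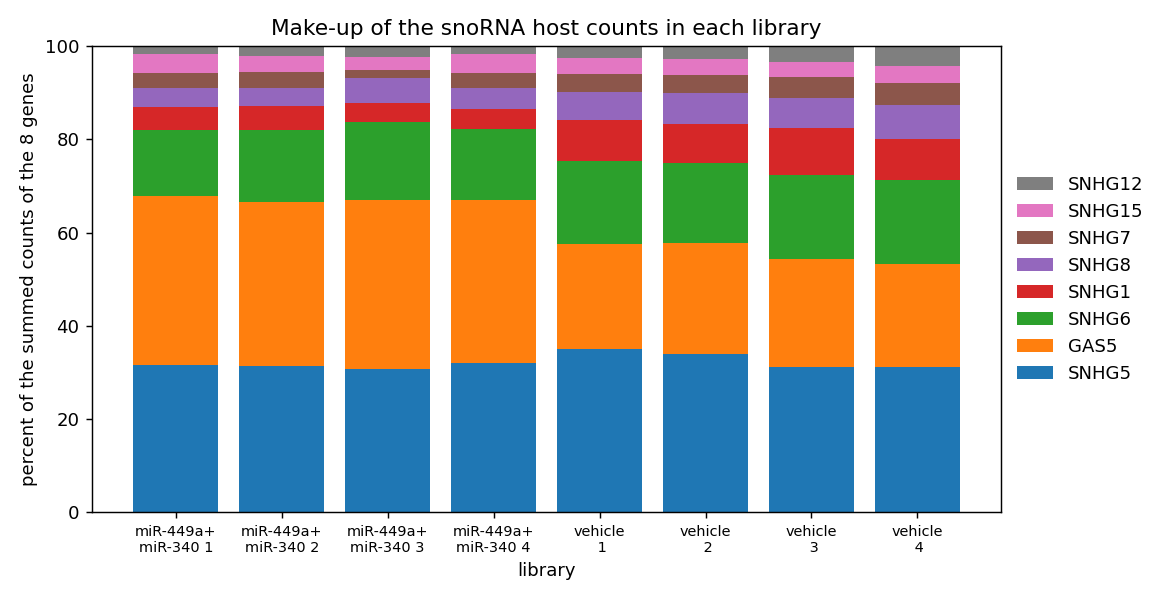
Share of each of the 8 genes in their summed counts, in percent, for the 4 microRNA libraries (left) and the 4 vehicle libraries (right). GAS5 (orange) averages 35.6% with microRNA and 22.8% with vehicle, and the SNHG1 share (red) is smaller with microRNA.

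Per kilobase of annotated exon, SNHG6 had the highest level of the 8 in both groups, at 78.5 ± 3.17 CPM per kb with microRNA and 175.6 ± 7.47 CPM per kb with vehicle (SD, n = 4 each). SNHG5 came next in both groups, at 71.6 ± 2.95 CPM per kb with microRNA and 144 ± 12.1 CPM per kb with vehicle. With microRNA the next in order were GAS5 (62.8 ± 1.56 CPM per kb), SNHG8 (30.3 ± 3.58), SNHG1 (8.04 ± 0.96), SNHG15 (6.28 ± 1.06), SNHG7 (4.29 ± 1.34) and SNHG12 (3.01 ± 0.33). With vehicle they were SNHG8 (88.5 ± 9.27 CPM per kb), GAS5 (77.4 ± 2.42), SNHG1 (29.4 ± 1.71), SNHG7 (12.1 ± 1.10), SNHG15 (11.5 ± 0.74) and SNHG12 (9.48 ± 2.47). SNHG7 and SNHG15 with vehicle differed by less than their spread, and so did SNHG12 and SNHG15. With microRNA, the gap between SNHG7 and SNHG12 was within the spread of SNHG7. The lengths, 923 to 4345 bases, pool all annotated isoforms, among them ones that retain introns, so levels of genes with many isoforms are understated.

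The snoRNAs inside these genes were hardly counted. The GENCODE 29 records read here place 18 distinct snoRNA names within 7 of the 8 genes and none within GAS5. Of these names, RF00560 and SNORA17A lie at the same place in SNHG7. Matched by name alone, SNORD30, SNORD99 and SNORA9 had an entry in the table, with 2, 21 and 5 counts over all 8 libraries. Entries under other names of these snoRNAs were not sought. SNORD74 and SNORD81, known as snoRNAs of GAS5, had 2 counts each. The libraries were made with a kit for polyadenylated RNA, so no level of the mature snoRNAs can be given, and the host counts do not separate spliced RNA from RNA that retains introns.

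Other snoRNA entries are given as read counts assigned to those entries, under the same limit of the kit. The table holds 150 entries named as snoRNAs or scaRNAs (their Cajal body relatives), and 11 reached the count minimum. Some of the 11 reached it only through high microRNA libraries, so the balance of rises and falls among them is not read as a result. All 150 entries together, tested or not, had 231 ± 13.8 CPM with microRNA and 138 ± 12.3 CPM with vehicle (SD, n = 4 each). How this sum divides between tested and untested entries depends on the count minimum, so the parts are not compared. SNORD13, which guides modification of ribosomal RNA and has its own promoter, had 122, 123, 79 and 64 counts with microRNA, against 7, 17, 13 and 6 counts with vehicle. Reads assigned to SNORD13 came to 22.6 ± 3.09 CPM with microRNA and 2.94 ± 1.18 CPM with vehicle. Its vehicle counts lay near the count minimum of 10, so no test is given for it.

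Of the entries that were called higher, 7 lie within a tested gene. The count minimum favoured entries high with microRNA, so what follows describes these entries only. Of these genes 3 fell, where 34% of all tested genes did, 1 rose and 3 did not pass. Those that fell were CWF19L1 around SNORA12 (log2 fold change of the gene -0.97), MAGED2 around SNORA11 (-1.28) and CEP295 around SCARNA9 (-0.34). RNF149 around SNORD89 rose (1.37). Those that did not pass were SNHG10 around SCARNA13 (-0.40, adjusted p = 0.177), CHD3 around SCARNA21 (-0.03, adjusted p = 0.657) and GTF2A1 around SNORA79 (0.08, adjusted p = 0.431). The entry called lower, SNORD104, lies within the noncoding host SNHG25, which also fell (-1.13).

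Other noncoding snoRNA hosts were mostly lower too, against 34% of all tested genes. Of 16 tested, 11 fell, 2 rose and 3 did not pass (median log2 fold change -1.06). SNHG3 fell 5.79-fold, with 33.4, 40.6, 32.0 and 22.5 CPM in microRNA libraries, against 167, 183, 202 and 211 CPM in vehicle libraries. SNHG16 measured 133 ± 17.8 CPM with microRNA and 399.5 ± 5.25 CPM with vehicle (log2 fold change -1.59). ZFAS1, host of the SNORD12 snoRNAs, fell 2.44-fold and LRRC75A-AS1 2.08-fold. The 2 that rose were SNHG14, which hosts the SNORD116 cluster of the Prader-Willi region (208 ± 18.9 CPM with microRNA and 180 ± 7.18 CPM with vehicle, adjusted p = 0.00266), and the host transcript SNHG23 (11.7 ± 2.61 CPM with microRNA and 6.70 ± 2.65 CPM with vehicle, adjusted p = 0.00116). In both of these the groups overlapped. C6orf48, called lower at a log2 fold change of -0.19, was not called when libraries were scaled by size alone (adjusted p = 0.514).

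Protein-coding snoRNA hosts were compared by whether they encode a ribosomal protein, beside the 34% of all tested genes called lower. Of 23 ribosomal protein hosts, 21 fell and 2 did not pass (median log2 fold change -0.67), with RPS3 at 309 ± 42.8 CPM with microRNA and 1554 ± 65.6 CPM with vehicle, and RPL32, RPL23A and RPL10 2.26-fold, 2.19-fold and 2.23-fold lower. Of 55 other cytosolic ribosomal proteins, 54 fell and 1 did not pass, also with a median of -0.67, so the medians of ribosomal hosts and non-hosts were close. Processed pseudogenes make the values of single ribosomal protein genes uncertain. Of 35 hosts encoding other proteins, 22 fell, 7 rose and 6 did not pass (median -0.44). The box C/D core protein genes NOP56 and NOP58, which themselves host snoRNAs, fell 2.46-fold and 1.82-fold, the elongation factor gene EEF1B2 2.07-fold and RANBP1 2.51-fold. The ubiquitin ligase gene RNF149 was the host with the highest rise, at 2.59-fold.

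**Figure D4:**
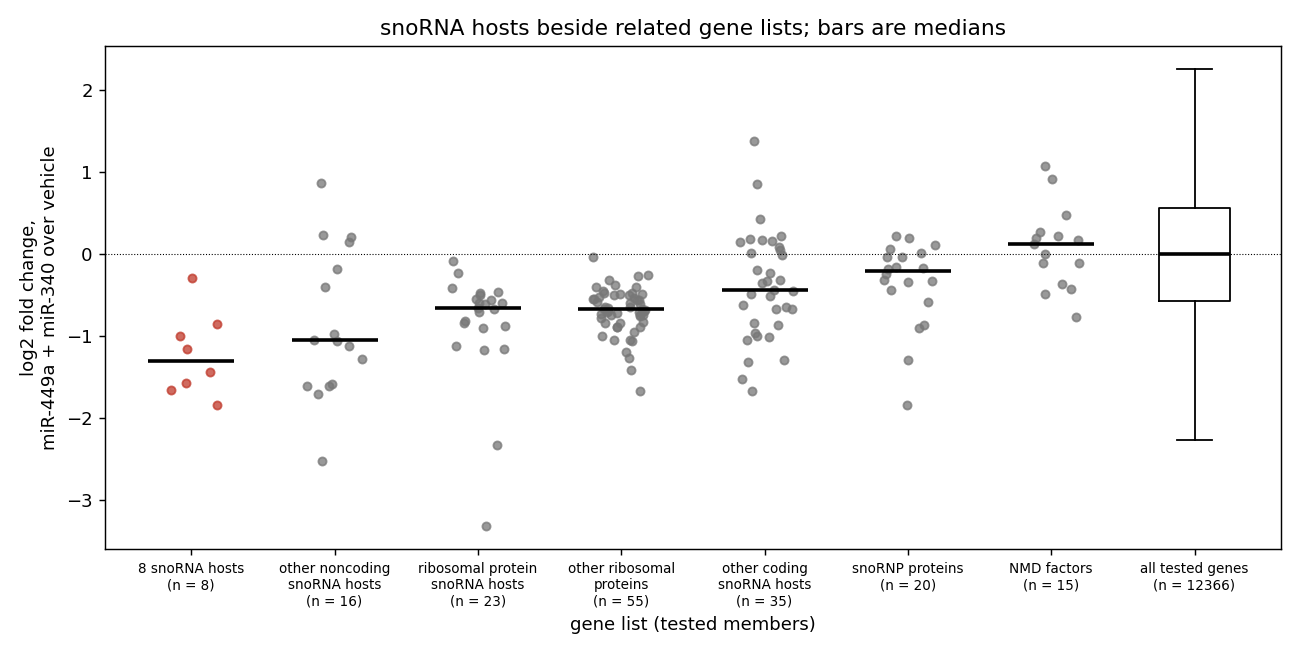
Log2 fold change, microRNA over vehicle, of each tested gene in 7 lists (points, bars at medians) and the spread of all 12366 tested genes (box, quartiles and whiskers to 1.5 times the interquartile range). The 8 snoRNA hosts (red) have a median of -1.31, and both ribosomal protein lists have medians of -0.67.

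Genes for the snoRNA-protein particle and for nonsense-mediated decay had medians nearer to 0 than that of the hosts. Of 20 tested genes for snoRNP proteins and their assembly, 9 fell, 1 rose and 10 did not pass (median log2 fold change -0.21). Over all tested genes, 34% fell and 33.4% rose. FBL, fibrillarin, the methyltransferase of box C/D particles, fell 1.88-fold. NHP2, a core protein of box H/ACA particles, measured 13.6 ± 2.15 CPM with microRNA and 49.7 ± 12.7 CPM with vehicle, a 3.59-fold fall. NOP56 and NOP58 are counted here as well. RPAP3, an assembly cofactor, was the gene that rose (log2 fold change 0.19, adjusted p = 0.0231), and that call was lost without microRNA replicate 1 or 3 or vehicle replicate 1 or 2.

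Of 15 nonsense-mediated decay factors, 5 rose, 3 fell and 7 did not pass (median 0.12). The share that rose was near the 33.4% of all tested genes called higher. NBAS rose 2.09-fold and the endonuclease gene SMG6 1.89-fold, with 39.4 ± 3.18 CPM with microRNA and 20.9 ± 2.82 CPM with vehicle. UPF3A rose 1.39-fold, with overlap between the groups, and the release factor gene GSPT1 fell 1.35-fold without overlap. Of 9 exon junction complex genes, 4 rose and 4 fell, where 33.4% of all tested genes rose and 34% fell. EIF4A3, the anchoring helicase of the complex, was 2.21-fold, MAGOHB 1.74-fold and RNPS1 1.68-fold lower, and ACIN1 was 1.59-fold higher.

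Ribosome production genes were lower in most cases, against 34% of all tested genes. Of 32 tested genes for ribosome biogenesis and RNA polymerase I, 22 fell, 3 rose (UTP3, RRN3 and POLR1C) and 7 did not pass (median log2 fold change -0.49). DDX21, a nucleolar helicase, fell 1.94-fold, NPM1, nucleophosmin, 1.80-fold, DDX10 2.36-fold and RRP1B 2.26-fold. Of 11 genes for TOP mRNA binding and the mTORC1 kinase, 6 fell, against 34% of tested genes, 1 rose and 4 did not pass. RPTOR, the mTORC1 scaffold, was the gene that rose, at 19.6 ± 2.07 CPM with microRNA and 9.71 ± 1.97 CPM with vehicle (1.96-fold, adjusted p = 4.14e-06), while MTOR had a log2 fold change of -0.01 (adjusted p = 0.933). LARP1, which binds TOP mRNAs, measured 256 ± 11.5 CPM with microRNA and 443 ± 19.0 CPM with vehicle, a 1.73-fold fall. The translation repressors EIF4EBP1 and EIF4EBP2 fell 1.48-fold and 1.71-fold, and PABPC1, the poly(A)-binding protein, 1.32-fold.

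Next to 2 of the host genes lies a gene that starts within 5 kb on the opposite strand. Both of these neighbours rose, where 33.4% of all tested genes were called higher. SLC3A2, the heavy chain of the CD98 amino acid transporters, starts 188 bases from the start of SNHG1 and runs away from it. It measured 129, 130, 135 and 154 CPM with microRNA, against 69.0, 62.4, 66.7 and 65.1 CPM with vehicle. SLC3A2 thus did not overlap between groups and rose 2.08-fold (log2 fold change 1.05, SE 0.08, adjusted p = 2.28e-17), while SNHG1 fell 3.58-fold. The sequence between these starts is shown because transcription runs outward from both of its ends. The RefSeq window of SNHG1 (GRCh38.p14, chr11:62855836-62856135, minus strand) is printed with the 189 bases from the annotated SLC3A2 start to the annotated SNHG1 start in capitals.
SNHG1: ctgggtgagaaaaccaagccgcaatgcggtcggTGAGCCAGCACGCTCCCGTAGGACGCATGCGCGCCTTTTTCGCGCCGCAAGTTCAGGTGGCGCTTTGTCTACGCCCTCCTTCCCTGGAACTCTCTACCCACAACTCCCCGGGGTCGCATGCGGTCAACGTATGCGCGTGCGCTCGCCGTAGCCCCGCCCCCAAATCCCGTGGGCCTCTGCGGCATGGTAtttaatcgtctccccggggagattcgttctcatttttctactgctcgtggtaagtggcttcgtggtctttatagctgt

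ZBTB37, a zinc finger protein gene of the plus strand, starts within GAS5 and overlaps it over 801 bases. It had 169, 188, 100 and 107 counts with microRNA, against 41, 40, 69 and 43 counts with vehicle. At 32.7 ± 2.14 CPM with microRNA and 13.5 ± 3.39 CPM with vehicle (SD, n = 4 each), without overlap between groups, ZBTB37 rose 2.46-fold (log2 fold change 1.30, SE 0.15, adjusted p = 6.43e-11), while GAS5 was 1.23-fold lower. The kit marks strand, but whether the counting used it is not given in the sources used here. Reads of the overlap may therefore be shared or dropped.

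Of the other opposite-strand genes that overlap a host, FAM69B over SNHG7 had a log2 fold change of 0.18 (adjusted p = 0.218), or 0.32 by library size alone (adjusted p = 0.0331), and TRNAU1AP over SNHG12 one of -0.05 (adjusted p = 0.76). GAS5-AS1 had 10 counts and MCMDC2, over SNHG6, 4 counts in all libraries, too few to test.

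**Figure D5:**
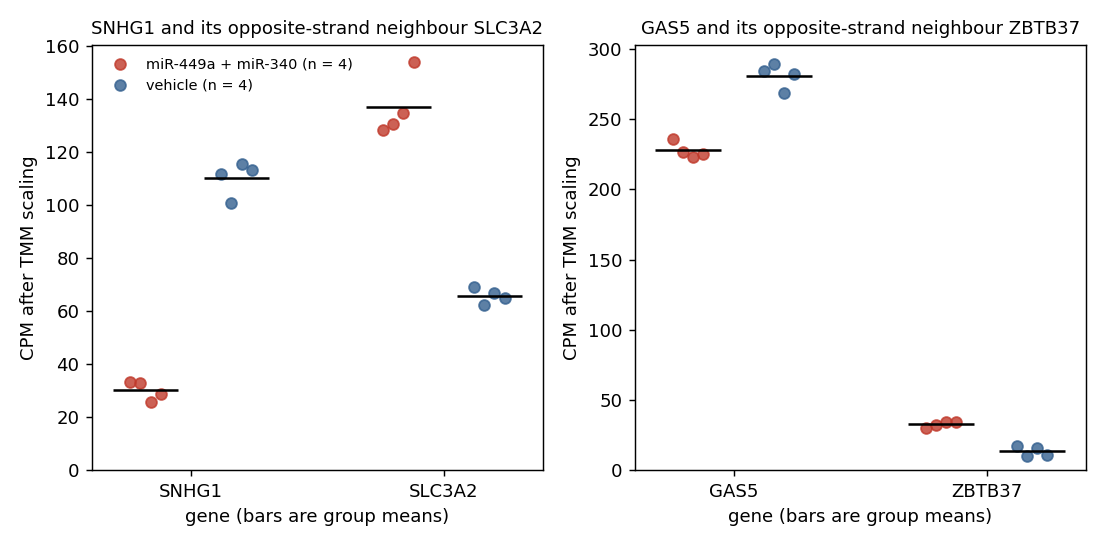
Levels of SNHG1 and SLC3A2 (left panel) and of GAS5 and ZBTB37 (right panel) in each library, in CPM after TMM scaling, with microRNA libraries (red) left of vehicle libraries (blue) and bars at the group means. SNHG1 and GAS5 are lower with microRNA, and the neighbours are higher, SLC3A2 at 137 CPM with microRNA against 65.8 CPM with vehicle.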

How the data were processed

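Polyadenylated RNA of 8 RD18 libraries was sequenced on a HiSeq4000 after a stranded mRNA kit, per the labels' protocols. The deposited table holds raw read counts by gene symbol. The submitters' processing notes list GRCh38 as build and the tools HTSeq 0.5.3p3, TopHat2 2.0.13, DESeq2 and SAMtools 0.1.19.24, without roles. Which annotation was counted, and on which strand, is not given in the sources used here.

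Columns were tied to samples by the library codes in the descriptions. Genes passing edgeR's filterByExpr (minimum count 10, minimum total 15) numbered 12366 and held 99.5% of counts. After TMM scaling, edgeR 4.0.16 (R 4.3.3, robust quasi-likelihood fit with group as its single term) gave p-values, adjusted by Benjamini-Hochberg over all tested genes and called under 0.05. Its biological coefficient of variation came to 0.0745, and each SE is the log2 fold change divided by the root of F. Shares were compared by exact permutation of 70 splits, and an adjustment over the 8 genes alone that had been planned is not given. No pair of libraries of 1 group agreed within sampling noise (chi-square per gene 2.21 to 5.89). Sequences and positions come from GENCODE 29 and RefSeq GRCh38.p14, and 11371 tested genes matched by name.

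The 8 genes and the comparison lists were chosen with earlier results of these data known. Besides the 8, the text names up to 4 tested genes per list. These had the smallest adjusted p and a mean of at least 1 CPM. It also names opposite-strand neighbours starting within 5 kb and snoRNA entries inside the 8 genes. For each of the 8, the 3 genes nearest in profile with at least 5 CPM were found, and the nearest is named. Genes named outside these rules were chosen after their values were seen. Alternatives were other scalings and filters, DESeq2 1.42.0, limma-voom (limma 3.58.1), a replicate block, removal of mitochondrially encoded genes and leaving out each library.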

Additional observations from a re-analysis of the deposited data

Results flagged for a closer look

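SNHG7 measured 9.98 CPM in the third microRNA library, 29 counts, against 20.9 to 22.5 CPM in the other microRNA libraries. It was picked out because this library lay far from the others of its group by Dixon's criterion for 4 values. The 8 genes gave 16 groups to examine, and chance picks out about 1 in 20 groups. Without this library the log2 fold change of SNHG7 was -1.29 (edgeR adjusted p = 1.42e-14), against -1.45 with it.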

How the results depend on the processing

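All 8 snoRNA hosts were called lower under each of the 17 alternatives run, 136 values in all. Over the alternatives, log2 fold changes ran from -0.33 to -0.16 for GAS5 and from -1.89 to -1.70 for SNHG1, from -1.06 to -0.86 for SNHG5, from -1.19 to -1.03 for SNHG6, from -1.55 to -1.29 for SNHG7, from -1.64 to -1.44 for SNHG8, from -1.76 to -1.46 for SNHG12 and from -0.95 to -0.72 for SNHG15. The largest adjusted p of any of the 8 was 0.0227, for GAS5 with library size as the only scaling. That scaling shifted all genes by 0.138 log2 units and gave 4890 higher and 3453 lower calls, against 4125 and 4199. Under it, calls of higher genes numbered 4 for other noncoding hosts, 11 for hosts encoding non-ribosomal proteins, 2 for snoRNP proteins, 8 for decay factors and 5 for ribosome biogenesis, against 2, 7, 1, 5 and 3. Leaving out 1 library at a time, snoRNP proteins called higher ran from 0 to 1 (RPAP3). With no count filter, 17 snoRNA and scaRNA entries were called higher and 5 lower, where 4679 and 4386 of all 22808 genes were. With at least 1 CPM in 4 libraries they numbered 14 and 2, where 4417 and 4433 of 14244 tested genes were called. The main fit gave 8 and 1, because fewer entries were tested in it. These numbers follow the count minimum, so the balance of rises and falls is not read as a result. Of 92 other genes followed through the alternatives, RPAP3 not among them, 7 values gained and 11 lost a call over the alternatives, and none turned round. Of the losses, 8 were those of NAA10.

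Same-numbered libraries deviated together only weakly (correlations 0.018 to 0.097). MicroRNA replicates 1, 2 and 3 matched the same-numbered vehicle library best, and replicate 4 did not. With correlations this weak, numbers were not taken as pairs in the main fit. With the replicate block, 4102 genes were called higher and 4171 lower, and all 8 hosts were called lower. Of the 150 snoRNA and scaRNA entries, 139 were below the count minimum.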

Other observations

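Genes whose profile over the 8 libraries was most like each host were sought by the Euclidean distance of centred log2 CPM. GAS5 lay nearest to RPL15 (distance 0.0763, log2 fold change of RPL15 -0.28), a ribosomal protein gene. SNHG1 lay nearest to ODC1 (0.223, log2 fold change -1.86), which encodes ornithine decarboxylase of polyamine synthesis. SNHG5 lay nearest to the proteasome subunit gene PSMA1 (0.119), followed by TFAM, which packages mitochondrial DNA (0.170). SNHG6 lay nearest to ASAP1 (0.122), SNHG7 to CD302 (0.369), SNHG8 to NEFH (0.240), SNHG12 to CRLF3 (0.398) and SNHG15 to LRRTM3 (0.207). SNHG12 and SNHG7 had the most distant neighbours of the 8. These distances describe 8 libraries, and the difference between groups is part of each profile.

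RefSeq windows of 300 bases around the start were held for 6 of the 8 hosts. The word TATANA, where N is any base, was chosen after the sequences had been seen and searched on both strands. All 6 windows held it, as did 19% of all 35116 RefSeq windows. In GAS5 it lay 114 to 219 bases before the annotated start, in SNHG8 36 bases before it on the opposite strand only, and in SNHG1 39 bases after it on the opposite strand only. In SNHG5, SNHG7 and SNHG12 it began 32, 30 and 30 bases before the annotated start on the strand of the gene. Within 40 to 16 bases before the start and on the strand of the gene, 3.43% of all windows held the word. The MYC-type word CACGTG was found in the SNHG7 window and in 7.26% of all windows.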
